A study of Nothobranchius furzeri with 8 samples.

Results

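In the whole brain of young male turquoise killifish (Nothobranchius furzeri), 100 of 26739 genes were picked because their level differed strongly from fish to fish inside each of 2 groups. Among the 14165 genes with a mean of at least 5 RPM over 8 fish (reads counted for a gene, scaled so that every library has the same total), the standard deviation was divided by the mean in 4 wild and in 4 captive fish, the smaller of the 2 ratios was kept, and the 100 genes with the highest kept ratio are the members. The gene Nfu_g_1_021435 was left out by the rule. Its ratios of 0.795 in wild and 0.264 in captive fish would have given it rank 315, so that the list is the same with or without this exception.

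Whole brains were sequenced as poly(A)-selected, strand-specific RNA. The wild fish (numbered 3, 5, 7 and 11 by the submitters and called W3, W5, W7 and W11 here) came from the population A41, labelled as strain MZM_A41, and were 39 days old after hatching. The captive fish (C124, C125, C126 and C127, after their numbers in the labels) belonged to the strain MZM-0410, which is kept in the laboratory, and were 35 days old by the labels. All 8 were males, and the labels name no treatment. Wild brains were taken out at the pond and stored in RNAlater before freezing, whereas captive fish had been housed singly and their brains were frozen on dry ice. Origin, strain, age and storage therefore cannot be told apart between the groups. Total counts were 11814586 to 14541119 per fish, and 3 counts correspond to 0.206 to 0.254 RPM. All 17 matched neuronal marker genes reached a mean of 5 RPM. Their summed level was 4785 to 5112 RPM in wild and 5273 to 5721 RPM in captive fish. These genes cannot show whether each brain was whole or what tissue was attached to it.

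A brain taken from a fish can carry, or lack, tissue that lies against it. The pituitary hangs below the hypothalamus on a thin stalk and makes peptide hormones, among them prolactin and the gonadotropins. The brain is wrapped in meninges, which are rich in fibrous collagen, and lies within a skull of bone and cartilage under skin whose epithelium is built on keratins.

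Only 23 of the 100 members (23%) have a symbol in the tables that give gene names, against 47.9% of the other 14065 genes at this level. Names were taken only from genes that the study lists in its supplement, 7368 in all, so a missing symbol does not show a poorly known gene. The 77 members without a symbol can be described by their values only. The ratio of SD to mean had a median of 0.809 in wild and 0.609 in captive fish for members and of 0.0906 and 0.0824 for the other genes, a difference that the rule itself sets. The SD expected from counting error alone, relative to the mean, had a median of 0.117 over members, taking the larger of both groups. The kept ratio ran from 0.408 to 1.30, and 22 members had a value of at least 1. Just inside the limit lay Nfu_g_1_021249 (0.409), Nfu_g_1_018030 and Nfu_g_1_012165 (0.408 each), and just outside it Nfu_g_1_019445 (0.406), PPP2R5B and Nfu_g_1_018535 (0.404 each). The ratio was larger in wild fish for 64 members and larger in captive fish for 36. Members were weakly expressed for the most part, with a median of 9.65 RPM against 30.4 RPM in the other genes, 73 members under 20 RPM and 8 above 100 RPM. Their median transcript length was 2526 nt, against 3059 nt in the other genes.

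In part of the members the highest fish stood far above the next. In wild fish the highest value was at least 2 times the next in 37 members, and in captive fish in 32. Among the other genes this held for 0.377% and 0.270%. The selection for spread itself favours such ratios, so this contrast is a description. W3 was the highest of its group in 39 members, W11 in 28, W7 in 17 and W5 in 16. Among the captive fish, C127 was highest in 37 members, C126 in 32, C124 in 22 and C125 in 9. Over the other genes each fish was highest in 22.5 to 27.0%. Added over all members, the level was 8604, 4362, 2119 and 4130 RPM in W3, W5, W7 and W11, and 3683, 1733, 2693 and 4240 RPM in C124, C125, C126 and C127. Members that rise and fall together over the fish were then grouped on log2(RPM + 1) after the mean of each fish's group was taken off, joining members at an average correlation above 0.7. This gave 10 groups of at least 3 members, which hold 68 members, and left 32 members in smaller groups. Since the members were selected for their spread and grouped by these same values, the agreement inside a group is a description and has no test.

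**Figure D1:**
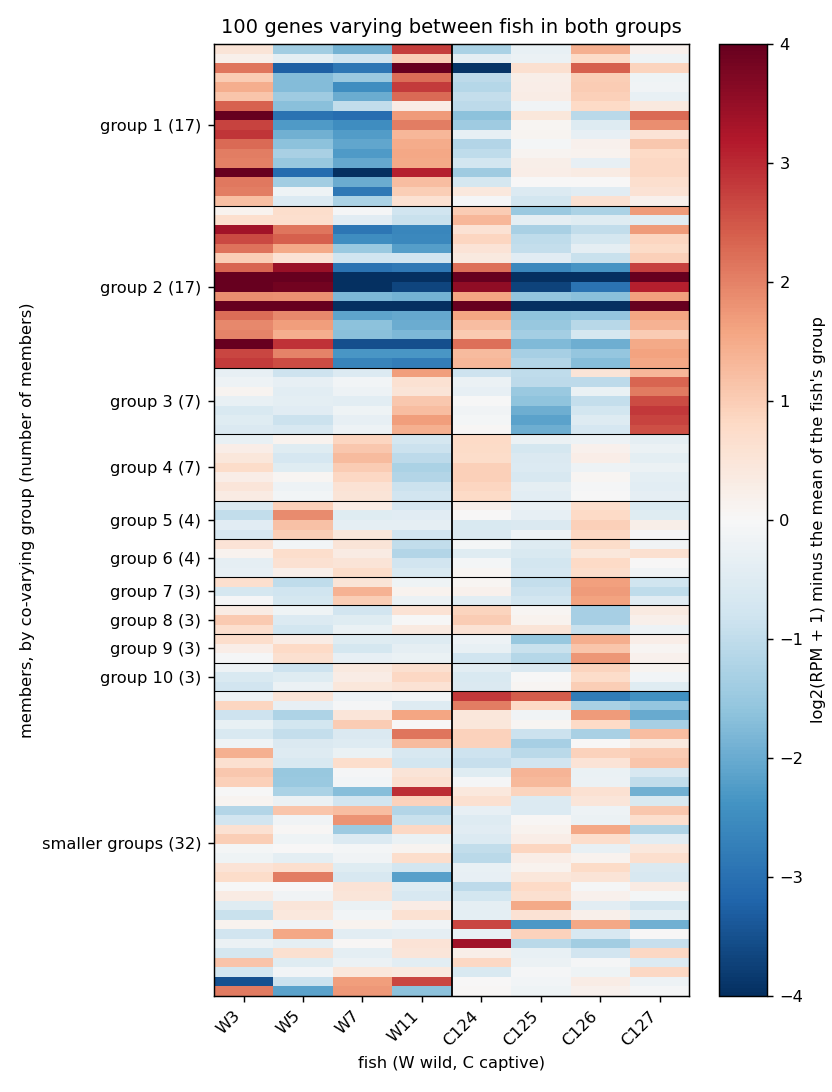
Level of the 100 members in each fish, as log2(RPM + 1) minus the mean of the 4 fish of the same group, with members as rows, fish as columns and colours that end at 4 and -4. The rows are ordered by co-varying group (group 1 with the collagens and keratins, group 2 with the pituitary hormones, group 3 without a symbol, group 4 with COLQ), and the 17 members of group 2 lie higher in W3 and W5 than in W7 and W11, while 16 of these 17 lie higher in C124 and C127 than in C125 and C126.

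A group of 17 members holds pituitary hormone genes, which were nearly absent from some brains of each group. PRL (Nfu_g_1_002728) encodes prolactin, a pituitary hormone that acts on salt and water balance in fish, and its human counterpart is listed as GH1, growth hormone of the same family. PRL was at 3222, 1832, 0.69 and 0.42 RPM in W3, W5, W7 and W11 and at 837, 1.12, 0.72 and 722 RPM in C124, C125, C126 and C127. The 4 low brains held only 6 to 15 counts of PRL, while the highest held 44866, and the ratio of the highest to the lowest fish was 7736 in wild and 1157 in captive brains. In whole-tissue RNA of this kind, fewer cells of a type and less RNA per cell cannot be told apart.

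LHB (Nfu_g_1_013489) has the killifish symbol of the luteinizing hormone beta subunit, with CGB1 listed as human counterpart. It was at 197 and 83.3 RPM in W3 and W5 and had no count in W7 and W11. In captive fish it was at 17.0 RPM in C124 and 10.0 RPM in C127, with 2 counts in C125 and none in C126. No count in a library allows up to 3 counts, here 0.206 to 0.241 RPM. Nfu_g_1_020666, which has no killifish symbol and the same human counterpart, CGB1, a beta subunit of glycoprotein hormones, was at 80.4, 33.4, 0.069 and 0.28 RPM in W3, W5, W7 and W11. Its captive values were 3.22, 0.15, 0.40 and 8.06 RPM in C124 to C127. The same brains were thus high and low for all 3 hormone genes.

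TBX20 (Nfu_g_1_011037), a T-box transcription factor best known from the developing heart, was at 27.1, 16.7, 1.24 and 0.35 RPM in wild and at 6.43, 1.65, 2.97 and 7.71 RPM in captive fish. The other 13 members of this group have no symbol. Nfu_g_1_022436 was at 518, 359, 0.069 and 0.97 RPM in wild and at 161, 0.075, 0.80 and 119 RPM in captive fish. Nfu_g_1_017941 was at 38.0 and 84.3 RPM in W3 and W5, and its highest value in W7 and W11 was 0.069 RPM. In captive fish Nfu_g_1_017941 was at 28.4, 0.075, 0.24 and 42.0 RPM. Both genes were high in the 4 brains that were high for PRL. Nfu_g_1_014206, singled out after its values were seen, was highest in C127 (1137 RPM), ahead of 721 and 624 RPM in W3 and W5 and 506 RPM in C124. It stayed between 0.080 and 0.52 RPM in the other 4 brains. Not all members of the group came near 0, since Nfu_g_1_012887, Nfu_g_1_010175 and Nfu_g_1_010204, also named after their values were seen, were at 2.17 RPM or more in every brain. In all 17 members W3 and W5 lay above W7 and W11, and in 16 of them C124 and C127 lay above C125 and C126.

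The fixed list of 21 pituitary genes matched 4 genes in the table, of which PRL and LHB are members. No gene of this list was without a count in all 8 fish. LHX3, a transcription factor of the developing pituitary, lay under the level limit, but its values of 7.04, 5.12, 0.21 and 0.069 RPM in wild and 2.2, 0.60, 0.96 and 2.29 RPM in captive fish had the same order of high and low brains. PCSK1, an enzyme that cuts prohormones and is also made by neurons, was at 221 to 301 RPM in wild and 265 to 313 RPM in captive fish. Summed over the list, the level was 264 to 3647 RPM in wild and 267 to 1140 RPM in captive fish, and without the 2 members it was 228 to 301 and 266 to 315 RPM. The list of 34 hypothalamic and other neuropeptides matched 6 genes, none of them a member, and their sum was 306 to 351 RPM in wild and 172 to 230 RPM in captive fish, with no brain of either group near 0. How much pituitary was attached to each brain was not tested.

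**Figure D2:**
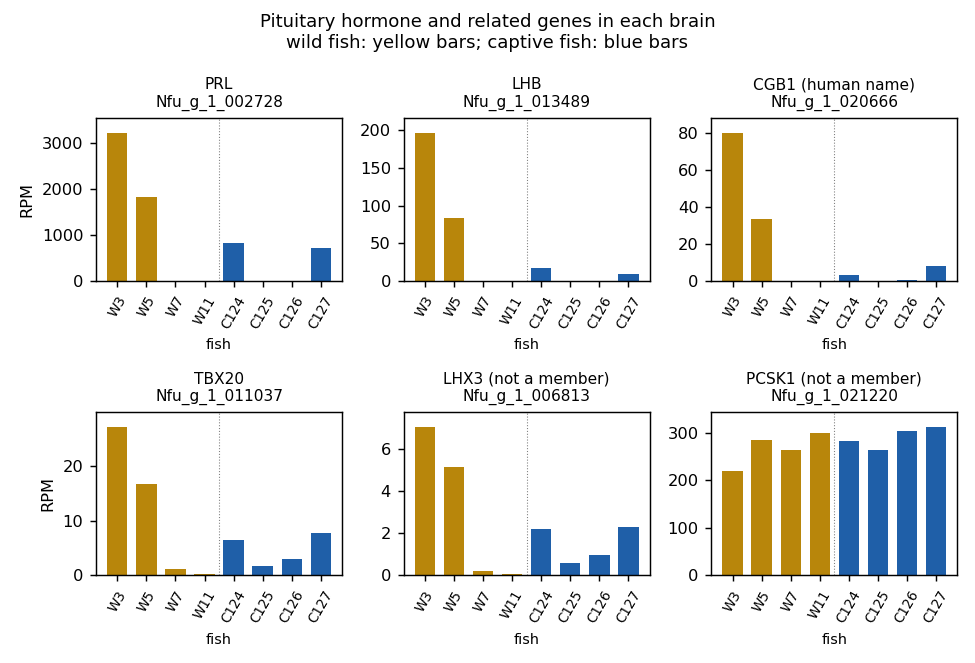
Level in RPM (vertical axis, a separate linear scale for each gene) of PRL, LHB, CGB1, TBX20, LHX3 and PCSK1 in each wild (yellow) and captive (blue) brain, 1 bar per fish. PRL, LHB and CGB1 stand out in W3 and W5 and, at lower levels, in C124 and C127, while PCSK1 lies between 221 and 313 RPM in all 8 brains.

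A second group of 17 members holds collagens and keratins. The set of high brains differed in part from that of the pituitary hormones. W3 was high in both, and C127, high for the hormones, was the highest captive fish in 9 of these 17 members. COL1A1B (Nfu_g_1_023149), a chain of type I collagen, the main fibrous collagen of bone, skin and connective tissue, was at 282, 41.3, 49.0 and 662 RPM in W3, W5, W7 and W11. Its captive values were 75.0, 184, 307 and 138 RPM in C124 to C127. COL1A2 (Nfu_g_1_013298) is by its symbol the partner chain, but COL1A2 is the listed human counterpart of both genes. It was at 213, 35.9, 24.1 and 476 RPM in wild and 50.5, 123, 195 and 81.6 RPM in captive fish. Both chains were highest in W11 and C126 and followed the same order in captive fish.

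COL10A1 (Nfu_g_1_022498), which in mammals marks the enlarged cartilage cells of growing bone, was at 108, 1.57, 2.34 and 387 RPM in wild fish. In captive fish COL10A1 was at 0.93, 45.4, 154 and 53.5 RPM. Its highest fish were W11 and C126, as for the type I collagen chains. A second COL10A1 gene (Nfu_g_1_015191), which ranked 145 and is no member, was at 42.3, 1.64, 3.64 and 33.9 RPM in wild and at 7.53, 19.0, 17.0 and 14.2 RPM in captive fish. PAPLNB (Nfu_g_1_018679), a papilin of the extracellular matrix, was at 4.67, 0.50, 0.069 and 25.6 RPM in wild and 0.59, 2.1, 9.16 and 3.27 RPM in captive fish. For the collagens and PAPLNB, C124 was the lowest of its group.

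Keratins form the filaments of epithelial cells, and 3 members have the human hair keratin KRT32 listed as counterpart. The member with the highest kept ratio of all, Nfu_g_1_006862, was at 229, 0.50, 0.41 and 36.9 RPM in wild and at 1.35, 9.14, 2.49 and 34.3 RPM in captive fish. Nfu_g_1_017018 was at 49.6, 0.64, 0.41 and 31.2 RPM in wild and at 2.96, 10.3, 6.51 and 37.8 RPM in captive fish. Nfu_g_1_015969 was at 36.1, 1.49, 0.83 and 20.6 RPM in wild and at 2.54, 6.67, 8.04 and 15.8 RPM in captive fish. All 3 keratins were highest in W3 and C127, unlike the collagens. The alignment was limited to 1 alignment per read, so the division of counts among such related genes is uncertain.

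In all 17 members of this group W3 and W11 lay above W5 and W7. C124 was the lowest in 14 of them, and the highest captive fish was C127 in 9 and C126 in 8. The 9 members without a symbol include Nfu_g_1_017106 and Nfu_g_1_024908, named after their values were seen because both models are 4306 nt long, with 156 and 117 RPM in W3 and 6.81 and 5.85 RPM in W7.

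Marker lists of tissues around the brain were summed beside this group. The sum of 11 matched genes of meninges and fibroblasts, with COL1A1B and COL1A2 among them, was 391 to 1455 RPM in wild and 493 to 861 RPM in captive fish, and 317 to 379 and 318 to 368 RPM without these members. The sum of 3 bone and cartilage genes was 111 to 524 RPM in wild and 64.8 to 244 RPM in captive fish, and 108 to 182 and 62.1 to 89.6 RPM without COL10A1. The 8 matched genes of epidermis and mucosa summed to 99.0 to 245 RPM in wild and at most 137 RPM in captive fish, and without the 1 member among them to 98.6 to 204 and at most 134 RPM. None of the genes of these lists was without a count in all 8 fish. With the members left out, the sums of the first 2 lists moved less from brain to brain. Of the weakly expressed epidermal genes, CLDNA, a claudin of tight junctions, was at 21.2, 0.28, 0.21 and 6.60 RPM in wild and at most at 1.04 RPM in captive fish. TP63, a transcription factor of basal epidermal cells, was at 9.62, 1.35, 1.93 and 7.29 RPM in wild and at 1.52, 1.5, 3.78 and 6.88 RPM in captive fish. CLDNA and TP63 were named after their values were seen, and the epidermal list as a whole did not share their order in all fish. Without its member, the list summed to 204, 131.4, 98.6 and 126.9 RPM in W3, W5, W7 and W11. This sum was highest in W3, but W5 lay above W11. In captive fish it was 132.7, 133.5, 125.1 and 124.9 RPM in C124 to C127, lowest in C127, where the 3 keratins were highest. The part of skin, bone or meninges in these values was not tested.

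**Figure D3:**
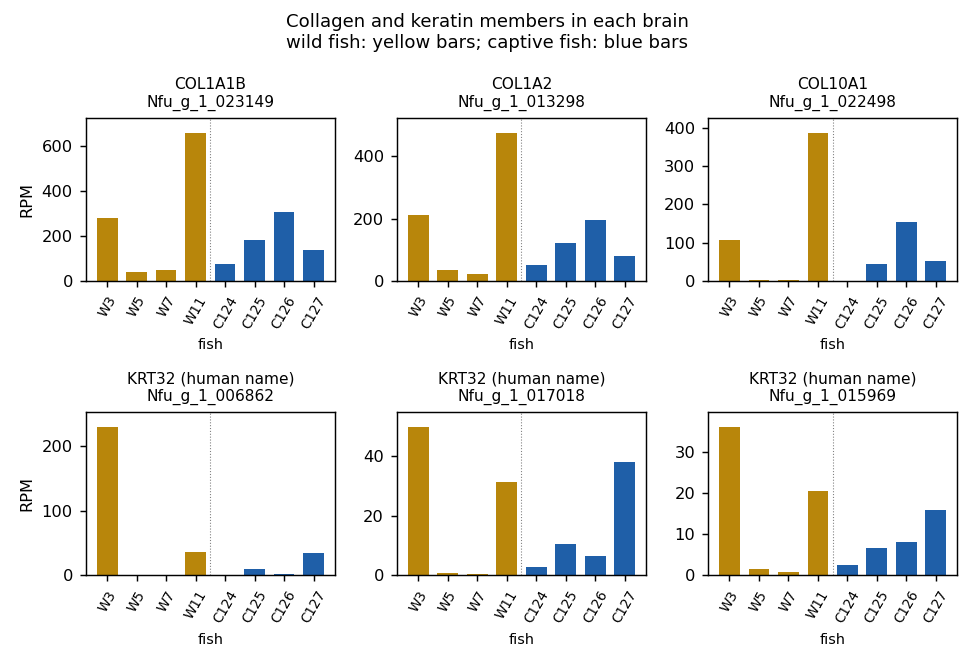
Level in RPM (vertical axis, a separate linear scale for each gene) of 3 collagen genes and the 3 keratin genes in each wild (yellow) and captive (blue) brain, 1 bar per fish. The collagens are highest in W11 and C126, with COL1A1B at 662 and 307 RPM, and the keratins in W3 and C127.

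A group of 7 members has no symbol at all. All 7 were highest in C127 and, among wild fish, in W11. Nfu_g_1_002091 was at 1.22, 0.71, 1.44 and 8.96 RPM in wild and at 33.4, 7.19, 24.3 and 235 RPM in captive fish. Nfu_g_1_014209 was at 0.57, 0.50, 1.03 and 5.28 RPM in wild and at 9.23, 1.57, 5.22 and 58.6 RPM in captive fish. C127 was thus more than 6 times above each of the other captive fish in both genes. When C127 or W11 was left out, 2 of these 7 genes were still among the 100 highest.

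A group of 7 members includes COLQ and SLC10A4, both known from synapses that use acetylcholine, the transmitter of motor neurons. COLQ (Nfu_g_1_006218), the collagen-like tail that anchors acetylcholinesterase, was at 7.68, 4.34, 8.32 and 2.43 RPM in wild and at 18.3, 7.34, 9.32 and 6.95 RPM in captive fish. SLC10A4 (Nfu_g_1_006993), a protein of synaptic vesicles in cholinergic and monoaminergic neurons of mammals, was at 7.33, 5.12, 8.53 and 2.92 RPM in wild and at 15.2, 5.85, 8.12 and 6.25 RPM in captive fish. All 7 members were highest in C124 and in W7 and lowest in W11. Without C124 none of the 7 was among the 100 highest.

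Other genes of acetylcholine use, looked up after these values were seen, are not members. CHAT, which makes acetylcholine, has 2 genes here, and Nfu_g_1_002978 was at 18.5, 21.2, 23.4 and 15.2 RPM in wild and at 46.0, 26.3, 31.2 and 31.1 RPM in captive fish. Nfu_g_1_023167, the second CHAT gene, was at 93.7 to 134 RPM in wild and 109 to 184 RPM in captive fish. ACHE, acetylcholinesterase itself, was at 85.5 to 90.8 RPM in wild and 145 to 196 RPM in captive fish, and SLC5A7, the choline transporter, at 9.86 to 13.8 and 18.8 to 25.1 RPM. In all 4 genes C124 was the highest of all 8, and W7 was the highest wild fish. This order was not particular to genes of acetylcholine use. The sum of 17 neuronal genes was also highest in C124 (5721 RPM) and, among wild fish, in W7 (5112 RPM). The sum of 11 genes of radial glia and astrocytes was highest in W7 (7391 RPM) and, among captive fish, in C124 (5381 RPM). The summed level of 10 oligodendrocyte genes, which has no member, was 7762, 6613, 7600 and 4902 RPM in wild and 11228, 7867, 8547 and 7351 RPM in captive fish, again highest in C124 and lowest in W11. The part of oligodendrocytes in the levels of these members was not tested.

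The remaining named members differed in which brains were highest, and several were highest in C126 among captive fish, as the collagens were. PRC1B (Nfu_g_1_022047), a counterpart of human PRC1 that bundles microtubules in dividing cells, was at 7.54, 25.1, 8.18 and 8.05 RPM in wild and at 6.18, 6.44, 20.3 and 12 RPM in captive fish. RGS11 (Nfu_g_1_020007), a regulator of G protein signalling known from retinal bipolar cells, was at 0.79, 12.1, 1.51 and 1.6 RPM in wild and at 19.5, 15.1, 34.8 and 13.7 RPM in captive fish. Both belong to a group of 4 members in which W5 stood out, at 25.1 and 12.1 RPM.

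TTC40 (Nfu_g_1_005613), whose human counterpart CFAP46 is a protein of cilia and flagella, was at 3.95, 3.63, 20.3 and 7.91 RPM in wild and at 2.37, 0.67, 8.92 and 0.49 RPM in captive fish. CNDP1 (Nfu_g_1_007783), which splits the dipeptide carnosine, was at 424, 313, 1059 and 521 RPM in wild and at 453, 351, 574 and 130.3 RPM in captive fish. W7 and C126 were the highest of their groups for both genes. Choroid plexus and ependyma, a tissue with motile cilia, was checked with 4 matched genes that hold no member and summed to 22.0 to 26.7 RPM in wild and 17.6 to 24.8 RPM in captive fish.

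IFI44L (human name, Nfu_g_1_002581), which rises under interferon, was at 13.0, 19.6, 6.26 and 8.12 RPM in wild and at 14.6, 9.22, 39.9 and 19.2 RPM in captive fish. ASTL (human name, Nfu_g_1_005655), an astacin metalloprotease, was at 7.76, 5.62, 2.82 and 2.71 RPM in wild and at 4.82, 1.35, 17.2 and 6.95 RPM in captive fish. Both lie in a group of 3 members, and C126 was the highest captive fish in all 3. IFI44L was the only member in the list for interferon and innate immunity, which matched 13 genes with sums of 262 to 292 RPM in wild and 239 to 467 RPM in captive fish.

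CBLC (Nfu_g_1_001191), a ubiquitin ligase of the CBL family, was at 38.2, 6.12, 17.5 and 30.5 RPM in wild and at 7.03, 19.3, 6.03 and 3.20 RPM in captive fish. LRRC31 (Nfu_g_1_011467), a protein with leucine-rich repeats, was at 12.9, 10.0, 6.67 and 23.5 RPM in wild and at 10.2, 3.97, 9.08 and 3.75 RPM in captive fish. NFKBIZ (Nfu_g_1_003674), a nuclear regulator of NF-kB target genes, was at 23.1, 0.28, 17.9 and 0.83 RPM in wild fish and at 0.15 to 0.48 RPM in captive fish. The captive values of NFKBIZ rest on 2 to 6 counts per fish. Their SD/mean of 0.442 lay under the 0.501 that counting error alone gives. For NFKBIZ the 2 high and 2 low wild brains were W3 and W7 against W5 and W11, an order that differs from those of the hormones and the collagens. Among members without a symbol, Nfu_g_1_018732, singled out after its values were seen, was at 55.5 and 41.7 RPM in C124 and C125 and at 0.64 RPM or less in the other 6 brains. Its counts in W3, W5, W7 and W11 were 0, 9, 0 and 1, so its wild SD/mean of 1.75 rests on few reads.

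**Figure D4:**
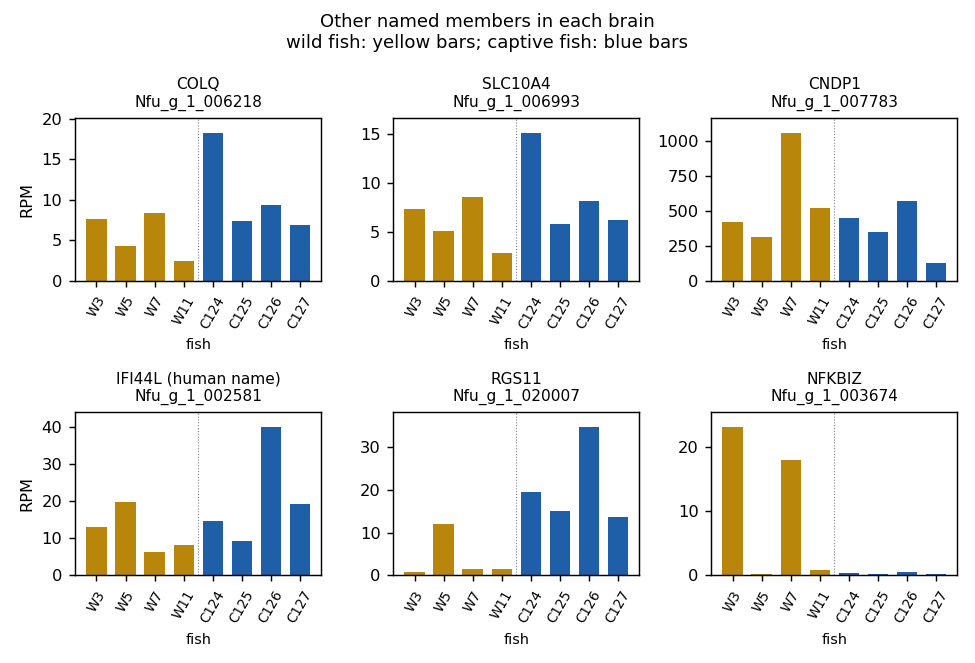
Level in RPM (vertical axis, a separate linear scale for each gene) of COLQ, SLC10A4, CNDP1, IFI44L, RGS11 and NFKBIZ in each wild (yellow) and captive (blue) brain, 1 bar per fish. The fish with the highest bar changes from gene to gene, with C124 at 18.3 RPM for COLQ, W7 at 1059 RPM for CNDP1 and C126 at 39.9 RPM for IFI44L.

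Wild and captive brains were then compared with a model fitted to the counts of all genes with at least 1 count in every fish. The 4 fish of a group came from separate animals, and replicate libraries differed by more than counting error, with a chi-square per gene of 7.44 to 16.3. Of the 100 members, 93 passed this filter, and 7, among them LHB, were without a count in at least 1 fish and were not tested. By edgeR's quasi-likelihood test, 22 of the 93 tested members (23.7%) differed at a Benjamini-Hochberg adjusted p under 0.05, against 41.6% of all 19517 genes tested. Higher in wild fish were 3 of the 93 tested members, against 19.8% of all genes. Lower were 19 of the 93, near the 21.8% of all genes. Every lower member except Nfu_g_1_003134 (17.4 RPM) had a wild mean under 5 RPM, and the 3 higher ones had captive means of 0.31 to 0.49 RPM. Such members passed the level limit through the group where they are high, a limit that the genes tested as a whole did not have. The median absolute log2 fold change of members was 0.97 against 0.31 for all genes, and their median standard error was 0.66 against 0.13. Selection for spread raises the standard error, so the smaller share of members called is a description and no result about these genes. The median log2 fold change was 0.24 for members and 0.04 for all genes.

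In no member were all wild fish above all captive fish, a pattern found in 26.3% of genes with a mean of at least 5 RPM. In 9 members all wild fish lay below all captive fish, against 21.7%. These 9 are among the 19 members that were lower by the test. Selection for spread inside both groups widens the range of each group, so fewer members without overlap follow from the rule itself.

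Of the 22 members that differed, 2 have a symbol, and both passed the level limit only through the group where they are high. RGS11 was lower in wild fish, with a log2 fold change of -2.41 (SE 0.70, edgeR quasi-likelihood adjusted p = 0.020), and the groups did not overlap. This call was lost without W7 (adjusted p = 0.051 by edgeR) or without C126 (adjusted p = 0.058 by edgeR). NFKBIZ was higher in wild fish, with a log2 fold change of 5.02 (SE 1.32, edgeR adjusted p = 0.013), but W5 at 0.28 RPM lay inside the captive range. Leaving out each fish gave an edgeR adjusted p of 0.0031 to 0.038 for NFKBIZ, and limma-trend gave a log2 fold change of 2.52 with an adjusted p of 0.065.

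The other 20 have no symbol, and 3 of them were singled out after their values were seen. Nfu_g_1_020353, the member with the smallest adjusted p, was at 0.069 to 0.21 RPM in wild and 4.74 to 19.6 RPM in captive fish, a log2 fold change of -6.51 (SE 0.60, edgeR adjusted p = 2.36e-05). Nfu_g_1_006693 was at 0.83 to 2.82 RPM in wild and 7.11 to 28.0 RPM in captive fish, a log2 fold change of -3.37 (SE 0.45, edgeR adjusted p = 0.00027). The groups did not overlap for either gene. The wild values of Nfu_g_1_020353 rest on 1 to 3 counts per fish, and their SD/mean of 0.540 lay under the 0.756 that counting error alone gives. Nfu_g_1_022520 was at 0.57, 8.75, 56.0 and 114 RPM in wild fish and 0.28 to 0.80 RPM in captive fish, a log2 fold change of 6.49 (SE 1.45, edgeR adjusted p = 0.0055), with W3 inside the captive range. Its captive values rest on 4 to 10 counts per fish. All 3 genes passed the level limit only through the group where they are high.

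Of the 12 tested members with the pituitary hormones and the 17 with the collagens, 1 differed between wild and captive brains. Over all genes tested the share was 41.6%, but these members were selected for spread, so few calls follow from the rule itself. Of the 17 members with PRL, 12 were tested and none differed, with log2 fold changes of -1.13 to 3.20 and a median of 1.05. PRL itself had a log2 fold change of 1.65 (SE 2.11, edgeR adjusted p = 0.56) and CGB1 one of 3.20 (SE 1.46, edgeR adjusted p = 0.10). An SE of this size leaves a wide interval, and the test does not show equal levels. Of the 17 members with the collagens, only Nfu_g_1_008045, a gene without a symbol, differed (log2 fold change 4.97, SE 1.5, edgeR adjusted p = 0.023). It was at 0.21 to 40.7 RPM in wild and 0.080 to 0.97 RPM in captive fish. Its captive values rest on 1 to 14 counts per fish, so it passed the level limit through wild fish. The call was lost without W3 (edgeR adjusted p = 0.068), C124 (0.060), C125 (0.056) or C126 (0.063). COL1A1B had a log2 fold change of 0.53 (SE 0.79), COL1A2 of 0.71 (SE 0.81) and COL10A1 of 0.96 (SE 1.36), with edgeR adjusted p of 0.62, 0.51 and 0.60. Without W11 the log2 fold changes of COL1A1B, COL1A2 and COL10A1 turned to -0.54, -0.34 and -0.80.

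In the group of 7 members that were highest in C127, 6 were lower in wild fish, against 21.8% of all genes tested. All 6 had a wild mean under 5 RPM and passed the level limit through captive fish. The median log2 fold change over this group was -3.54. Without C127 the calls of Nfu_g_1_014209 (adjusted p = 0.17 by edgeR) and Nfu_g_1_007569 (adjusted p = 0.051 by edgeR) were lost. The call of Nfu_g_1_014209 was also lost without W3, W5 or W7 (adjusted p = 0.081 to 0.082 by edgeR). Of the 7 members with COLQ and SLC10A4, 2 were lower in wild fish, both without a symbol, against the same 21.8%. The median log2 fold change was -0.85. COLQ had a log2 fold change of -0.90 (SE 0.41, edgeR adjusted p = 0.10) and SLC10A4 one of -0.59 (SE 0.37, edgeR adjusted p = 0.23). Other named members that were tested (PRC1B, TTC40, CNDP1, IFI44L, ASTL, CBLC, LRRC31, PAPLNB, TBX20 and the keratins) had log2 fold changes from -0.85 for IFI44L to 2.43 for the keratin Nfu_g_1_006862, and none passed the threshold.

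**Figure D5:**
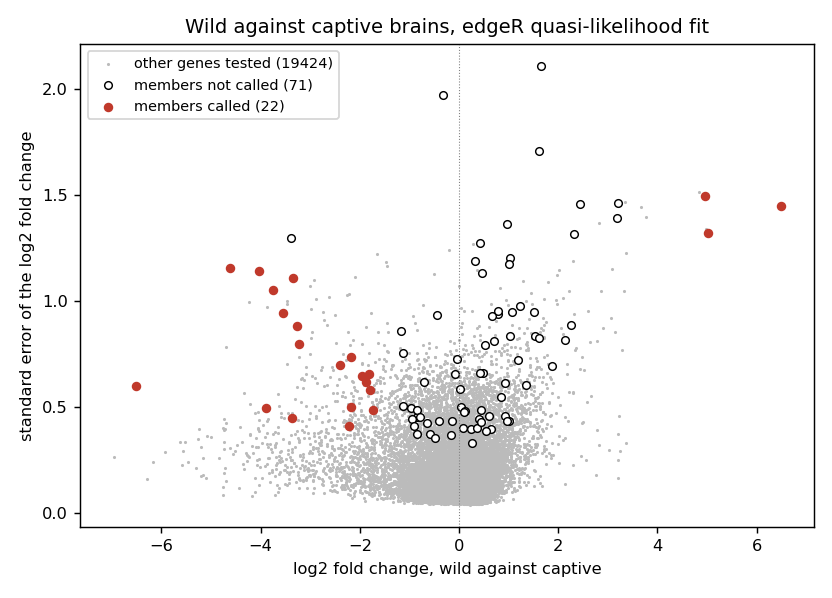
Standard error (vertical axis) against log2 fold change of wild over captive fish (horizontal axis) for all 19517 genes tested by edgeR, with the 93 tested members as circles, filled where the adjusted p is under 0.05. Members sit high on the vertical axis, at a median standard error of 0.66 against 0.13 for all genes, which the selection for spread favours. Filled circles lie to the left of 0 for 19 of the 93 members, against 21.8% of all genes tested. To the right of 0 they lie for 3 of the 93, against 19.8%.

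No gene of the erythrocyte list, a marker of blood, is a member. This list matched 10 genes with summed levels of 718 to 1172 RPM in wild and 1055 to 1687 RPM in captive fish. Its most abundant gene, a haemoglobin with the human name HBG1 (Nfu_g_1_007654), ranked 268 by the kept ratio and was at 574, 273, 510 and 517 RPM in wild and 562, 765, 393 and 519 RPM in captive fish. By edgeR's quasi-likelihood test 1 of the 10 genes was higher and 6 were lower in wild fish at an adjusted p under 0.05, against 19.8% and 21.8% of all genes tested. The lowest wild brain for HBG1 was W5, which was high for the hormones and low for the collagens. Of the 27 fixed lists, 5 hold a member and 22 hold none, and the lists together take in 7 of the 100 members. Lists were matched by name, so the 77 members without a symbol could not fall in any list. A list without a member, such as that of erythrocytes, therefore does not show that no member belongs to that tissue. The lists without a member include skeletal muscle, eye and pineal, endothelium, microglia, radial glia and astrocytes, neurons, immediate early genes and heat shock proteins, while the list of lymphocyte genes matched no gene.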

How the data were processed

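Total RNA of 8 whole brains was sequenced by the authors in 51-cycle single-end reads, with all libraries handled in 1 batch. The authors used bcl2fastq 2.20.0.422 for base call conversion and TopHat2 2.1.0 for alignment to a repeat-masked N. furzeri genome (limited to 1 alignment per read). They used featureCounts 1.6.5, with the strand reversed, for the count of each gene. The deposited table holds raw counts, RPM (counts scaled by the library total) and RPKM (RPM per kilobase of transcript), with replicates not pooled. RPM equalled counts over column totals, and the ratio of the deposited RPM and RPKM gave transcript lengths. Total counts were 11814586 to 14541119 per library. Limits given for a count of 0 cover counting error only.

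Levels are deposited RPM. Fold changes come from the quasi-likelihood F-test of edgeR 4.0.16 in R 4.3.3 (TMM factors 0.982 to 1.02, genes with at least 1 count in all 8 libraries, 19517 genes, group as the only term, Benjamini-Hochberg adjustment over all genes, threshold 0.05). Standard errors (SE) were not estimated directly but derived as the absolute log2 fold change over the square root of the F statistic. Scripts were tested on simulated data. Alternatives were RLE and upper quartile scaling, no filter or filterByExpr, thinned counts, DESeq2 1.42.0, limma-trend (limma 3.58.1) on log2(RPM + 0.5), other definitions of the members, and leaving out each fish.

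The members, the 27 marker and pathway lists (18 of cell types, 9 of pathways) and the tests were chosen with earlier results of these data known. Names are killifish symbols from the study's tables or, where none exists, the listed human counterpart, 7368 genes in all. Every member with a symbol but 1 was named, with all fish for those and for the highest members by the kept ratio (at most 4 without a symbol), and exceptions are marked in the text. That member is not reported here. The reference table at hand uses other gene identifiers, so no coordinates or sequences are given. Nfu_g_1_021435 was left out by the rule.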

Additional observations from a re-analysis of the deposited data

Results flagged for a closer look

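Among the 23 named members, 46 groups of 4 fish were searched for a fish far from the other 3 (Dixon's criterion, which chance meets in about 1 of 20 groups), and 3 were found. All 3 were wild fish. For the keratin Nfu_g_1_006862 (human name KRT32), W3 was at 229 RPM and the others at 0.41 to 36.9 RPM. For PRC1B, W5 was at 25.1 RPM and the others at 7.54 to 8.18 RPM. For RGS11, W5 was at 12.1 RPM and the others at 0.79 to 1.6 RPM. Members were selected for their spread, so these values are a description. Over all 100 members, 1 wild fish lay apart in 18 members (against 5.72% of the other genes) and 1 captive fish in 15 (against 5.15%).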

How the results depend on the processing

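The list depends on the level limit. With a mean of at least 1 RPM, 30 of the 100 members were again among the 100 highest, and with at least 10 RPM 49 were, since 51 members lie under that limit. Other definitions shared 73 to 98 members (73 with the mean of the groups in place of the smaller ratio, 84 with the SD of log2 values, 96 after subtracting counting variance, 98 on TMM-scaled CPM), and leaving out 1 fish shared 75 to 90. Of the 17 members with PRL, 15 to 17 were kept without any 1 fish, and of the 17 with the collagens 13 to 17. The 3 members higher in wild fish became 1 with filterByExpr and 2 to 7 without 1 fish (7 without W5 or W7, 5 without C126), and 2 to 4 in the other settings. The filter of filterByExpr can also take members out of the test, so the lower count there need not be a lost call. The 19 lower members became 13 to 19 without 1 fish and 17 to 21 otherwise. Over all genes, leaving out 1 fish gave 2933 to 3685 higher and 3845 to 4124 lower genes, and upper quartile scaling turned 3864 higher and 4251 lower into 5046 and 3788. Of the 22 calls, 13 held without each fish in turn and 15 in all 7 other settings. Calls that moved included, beside RGS11 and NFKBIZ above, TTC40 without C126 (log2 fold change 2.92, adjusted p = 0.019) and CBLC without W5 (1.66, 0.032) or C125 (2.08, 0.021), all by edgeR. The cause was not tested. No called member named here changed direction, but 8 named members that were not called did in at least 1 setting. Without W11 PAPLNB turned from 1.01 to -1.15, as did the collagens above, and limma-trend gave these 4 genes -0.04 to -0.29. The keratins Nfu_g_1_017018 and Nfu_g_1_015969 turned to -0.45 and -0.14 without W3 and to -0.65 and -0.14 with limma-trend. PRC1B turned from 0.09 to -0.52 without W5, -0.11 without C124 and -0.10 without C125, and ASTL from -0.71 to 0.06 without C126. No paired analysis was possible because the fish numbers do not pair a wild with a captive fish. With 4 fish a group, members with an SE near 2 on the log2 scale can only show very large differences.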

Other observations

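Beside IFI44L, other genes of the interferon list and C4B of the complement list, none of them a member, were highest in C126. RSAD2, an antiviral enzyme, was at 26.7 RPM there and at 1.87 to 5.84 RPM in the other captive fish, against 2.23 to 4.13 RPM in wild fish. DHX58, a sensor of viral RNA, was at 80.5 RPM against 19.1 to 27.9 RPM, and 20.3 to 29.6 RPM in wild fish. C4B, a complement component, was at 113 RPM against 29.1 to 53.1 RPM, and 32.9 to 41.4 RPM in wild fish. These genes were picked after their values were seen, and their values in wild fish lay close together. By edgeR's quasi-likelihood test 1 of the 13 genes of the interferon list was higher and none lower in wild fish, at an adjusted p under 0.05, against 19.8% and 21.8% of all genes tested.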
